A study of Homo sapiens with 12 samples.

Results

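The genes described are 10 families of developmental transcription factors outside the HOX clusters, the SOX, GATA, TBX, PAX, POU, LHX, DLX, MSX and IRX genes and the homologues of fly sine oculis. They were measured in C4.2B, an established castration-resistant cell line of human prostate cancer. Members were chosen by symbol alone, as a family name followed by a number and, in a few cases, the letter A or B, and 91 of the 23228 genes in the count files matched. PolyA RNA was sequenced from 12 libraries, 3 for each of 4 arms, named A, B and C. Every arm was cultured for the last 24 h in medium with 10% charcoal-stripped serum. The DMSO arm received vehicle throughout, the GDC arm received 0.5 µM of GDC-0941, which inhibits all class I PI3K isoforms, for those 24 h, the GSK arm received the EZH2 inhibitor GSK126 at 5 µM for those 24 h after 6 days of pretreatment with it, and the COMBO arm received both agents after the same pretreatment. The GSK126 arms were therefore exposed to their agent for longer than the GDC arm, and time and agent cannot be told apart. The libraries of an arm were replicate plates of 1 cell line, so p-values measure the spread between these plates and not between independent lines.

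SOX proteins bind DNA through an HMG box, GATA factors through zinc fingers, TBX factors through the T-box, and PAX factors through the paired domain, while POU, LHX, DLX, MSX, IRX and sine oculis factors carry homeodomains, alone or with another domain. Such genes set the identity of tissues in the embryo, and most are silent in any one adult cell type. EZH2 is the catalytic subunit of Polycomb repressive complex 2, which trimethylates histone H3 at lysine 27, and promoters of developmental transcription factors rich in CpG are among its best known targets. PI3K signals through AKT and mTOR to growth and metabolism, and GATA2, SOX4 and SOX9 are family members long studied in prostate epithelium and prostate cancer.

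Library depth in genes was 8785218 to 44437751 counts, with DMSO C the deepest. The mean share of reads outside genes moved with the arms, from 14.2% for DMSO and 15.6% for GDC to 18.8% for GSK and 21.8% for COMBO. All 10 luminal prostate markers examined, KLK3 among them, were at 1 CPM (gene counts scaled to a common library size) or more on average in every arm. Their sum was 3771 to 3984 CPM in DMSO libraries, 5372 to 5543 with GDC, 4886 to 5321 with GSK and 6049 to 6475 with COMBO, although not every one of the 10 rose. None of 4 basal markers reached 1 CPM in any arm (highest mean 0.577, KRT15 in GSK), although their sum went from 0.0962 to 0.210 CPM in DMSO libraries to 0.553 to 0.932 with GSK. Of 7 neuroendocrine markers, NEUROD1 was at 0 throughout, SYP was at 1.43 to 2.19 CPM, NCAM1 went from 0.445 in DMSO to 1.15 with COMBO, and the sum of the 7 was 2.10 to 2.73 CPM in DMSO, 3.16 to 4.06 with GSK and 3.25 to 3.64 with COMBO. Some of the remaining neuroendocrine markers, all below 1 CPM, were lower in COMBO than in DMSO. Of 6 fibroblast markers, COL1A2, DCN and LUM were at 0 in DMSO, and the summed level of the 6 went from 10.3 to 11.7 CPM in DMSO libraries to 26.2 to 38.6 with GSK and 29.4 to 48.4 with COMBO, most of it COL1A1. Of 5 leukocyte markers CD3E was at 0 throughout, and the sum, mostly CD68, was 4.84 to 5.69 CPM in DMSO and 6.92 to 9.56 with GSK. Of 5 endothelial markers VWF alone reached 1 CPM, and the sum was 2.73 to 3.27 CPM in DMSO, 4.56 to 7.07 with GDC, 5.84 to 6.37 with GSK and 4.99 to 5.68 with COMBO. Of 4 muscle markers DES and MYOD1 were at 0 throughout, while ACTA2 went from 4.57 CPM in DMSO to 6.83 with GSK and 3.34 with COMBO. The part of these shifts, or of the share of reads outside genes, in the results that follow was not tested. In bulk RNA, fewer cells that express a gene and less RNA per cell cannot be told apart.

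Promoter sequence was printed for 4 members that changed with the EZH2 inhibitor. They are the 2 with the deepest fall and the 2 with the largest rise in GSK among 6 members with a single RefSeq promoter entry, a window free of annotated exons and a GSK call that held in every alternative fit. DLX1 (log2 -2.01 in GSK) and DLX2 (-1.09) were left out because their windows held annotated exons. SOX12, which is printed, was only 1.25-fold lower in GSK. Each run is the 250 bases upstream of the transcription start in GRCh38.p14, from RefSeq, written 5′ to 3′ on the gene's strand, with every CG dinucleotide in capitals. The window of SIX2, a kidney progenitor factor that fell, lies on the minus strand at chr2:45009453-45009702 and holds 26 CG. That of SOX12, a SoxC factor that fell, lies on the plus strand at chr20:325302-325551 and holds 42. That of SOX4, a SoxC factor that rose, lies on the plus strand at chr6:21593501-21593750 and holds 8. That of TBX19, a pituitary T-box factor that rose, lies on the plus strand at chr1:168280627-168280876 and holds 2.
SIX2: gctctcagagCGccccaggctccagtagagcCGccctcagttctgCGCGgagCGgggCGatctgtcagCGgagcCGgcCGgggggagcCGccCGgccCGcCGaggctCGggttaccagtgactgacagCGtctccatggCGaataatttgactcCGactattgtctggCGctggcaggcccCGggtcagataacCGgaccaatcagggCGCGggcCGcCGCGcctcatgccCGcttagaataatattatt
SOX12: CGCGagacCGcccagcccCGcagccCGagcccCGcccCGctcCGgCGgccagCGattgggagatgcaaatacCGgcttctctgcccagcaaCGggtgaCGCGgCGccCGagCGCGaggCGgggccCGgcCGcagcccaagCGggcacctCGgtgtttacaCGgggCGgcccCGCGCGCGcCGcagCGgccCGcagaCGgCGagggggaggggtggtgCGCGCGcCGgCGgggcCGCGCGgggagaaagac
SOX4: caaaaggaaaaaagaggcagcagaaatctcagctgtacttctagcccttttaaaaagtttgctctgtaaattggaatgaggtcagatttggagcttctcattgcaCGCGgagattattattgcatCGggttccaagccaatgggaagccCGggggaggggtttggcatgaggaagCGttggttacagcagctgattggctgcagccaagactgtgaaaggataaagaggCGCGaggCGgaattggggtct
TBX19: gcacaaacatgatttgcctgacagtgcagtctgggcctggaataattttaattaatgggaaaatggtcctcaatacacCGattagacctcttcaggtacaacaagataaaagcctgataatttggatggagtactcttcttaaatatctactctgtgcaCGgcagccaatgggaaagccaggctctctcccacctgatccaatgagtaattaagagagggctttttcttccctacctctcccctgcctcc

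RefSeq promoter entries matched 61 of the 91 members. Over the 300 bases from 250 before to 50 after the start, the members held a median of 23.0 CG dinucleotides (2 to 54), and 82.0% held 14 or more, the median of all 27305 promoters, of which 50.1% did. The 12 matched members called higher in GSK held a median of 22.5 (3 to 32), and the 9 called lower held 30.0 (14 to 54), so the 2 groups overlapped. In all, 22 members were called higher in GSK and 12 lower, so these medians leave out members without an entry. Among those left out were SOX9, GATA5, POU2F3, DLX3, DLX5, SIX3 and IRX6, each at least 2-fold higher in GSK. TBX3 and SOX11, called lower, were also left out. The 8 called higher with a single entry held a median of 23.0 (3 to 32). The printed SOX4 (8) and TBX19 (3) were at the low end of these and do not stand for the members that rose. The GC box GGGCGG, read on both strands, was in 59.0% of members' windows and in 44.6% of all windows, CCAAT in 47.5% and 35.7%, and the FOXO core GTAAACA in 3.28% and 3.41%. A match of letters is a description of the window and not a binding site.

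In vehicle-treated cells the families were mostly low or silent, with a few highly expressed members. Per kilobase of exon, the mean DMSO level was 86.4 CPM per kb for GATA2, 84.2 for TBX3, 33.6 for SOX12, 31.8 for SOX4 and 19.7 for IRX4, with TBX1 next at 9.07 and IRX3 at 9.04. The DMSO libraries of GATA2 (86.5, 83.7 and 88.9 CPM per kb) and TBX3 (87.5, 80.5 and 84.5) overlapped, so their order was not resolved. SOX12 (32.1, 34.7 and 34.1 CPM per kb) lay above SOX4 (32.0, 31.5 and 31.8) in every DMSO library, narrowly so in DMSO A. All 3 DMSO libraries held at least 1 CPM of 29 members, against 33 members in GDC, 35 with GSK and 36 with COMBO. At the other end, 17 members had 0 counts in all 3 DMSO libraries, 23 with GDC, 18 with GSK and 12 with COMBO, and the number at 0 also depends on the pooled depth of the arm. SIX2 was the member detected by this rule in DMSO and not in GSK or COMBO, while SOX6, SOX7, TBX19, PAX2, LHX9 and DLX3 were detected in both GSK126 arms and not in DMSO. Of these, LHX9 and DLX3 were also detected in GDC. SOX7 missed the rule in DMSO B alone, at 0.995 CPM, and its exons overlap those of PINX1 on the same strand. In edgeR's quasi-likelihood test its change did not pass in GSK (log2 0.44, adjusted p = 0.152) or COMBO (adjusted p = 0.173).

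Of the 91 members, 48 passed the filter on low counts and were tested, 33 had counts and were not tested, and 10 had no count in any library. The 10 were SOX3, SOX17, TBX21, PAX3, PAX4, POU1F1, POU3F3, POU4F2, LHX8 and DLX4. A member silent in DMSO could pass the filter only by being high elsewhere, so counts are also given for the 35 tested members that reached the filter level of 0.705 CPM in all 3 DMSO libraries. Named below as rising, SOX6, GATA5, TBX19, PAX2, LHX4, DLX5, SIX3 and IRX6 did not reach that level. Their p-values for a rise therefore follow a filter that favours rises. Members called had an adjusted p under 0.05 in edgeR's quasi-likelihood test over all 14189 genes tested.

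After GDC-0941, 13 of the 48 tested members (27.1%) were called, 10 higher and 3 lower, where 40.1% of all genes tested were called, 20.0% higher and 20.0% lower, and 7 members were called without GDC C. The split of the calls in GDC depended on the processing, with 6 higher and 5 lower by DESeq2, 7 and 6 with its size factors in edgeR, and 7 and 7 with no filter. After GSK126, 34 members (70.8%) were called, 22 higher and 12 lower, where 75.8% of all genes were called, 40.0% higher and 35.8% lower. In COMBO, 37 members (77.1%) were called, 24 higher and 13 lower, where 82.5% of all genes were called, 43.3% higher and 39.2% lower. In each arm the share of members called lay below that of all genes, a difference that was not tested. Among the 35 members at the filter level in DMSO, 12 were called in GDC (9 higher, 3 lower), 26 in GSK (14 higher, 12 lower) and 28 in COMBO (16 higher, 12 lower). Of all genes at that level, 43.5% were called in GDC, 76.1% in GSK and 82.6% in COMBO. The median log2 fold changes of the 35 members were 0.09, 0.03 and 0.24, against -0.00, -0.02 and -0.05 for all genes at that level. Scaling to library totals in place of TMM moved the median of all genes up by 0.15 with GSK and 0.21 with COMBO on the log2 scale, so small changes in these arms are relative to that choice.

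Changes of at least 2-fold were 1 higher and 0 lower in GDC, 11 higher and 3 lower in GSK, and 14 higher and 7 lower in COMBO. Of all genes tested, 1.73% were called at least 2-fold higher and 0.148% at least 2-fold lower in GDC, against 16.0% and 5.86% with GSK and 19.9% and 11.2% with COMBO. Several of these members passed the filter through the arms where they are high, and among the 35 at the filter level in DMSO the counts were 0 in either direction with GDC, 4 higher and 3 lower with GSK, and 7 higher and 6 lower with COMBO. The shares of all genes at that level were 9.52% higher and 6.47% lower in GSK and 13.1% and 12.5% in COMBO. The plot of log2 fold changes by family shows how the direction was split within most families.

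**Figure D1:**
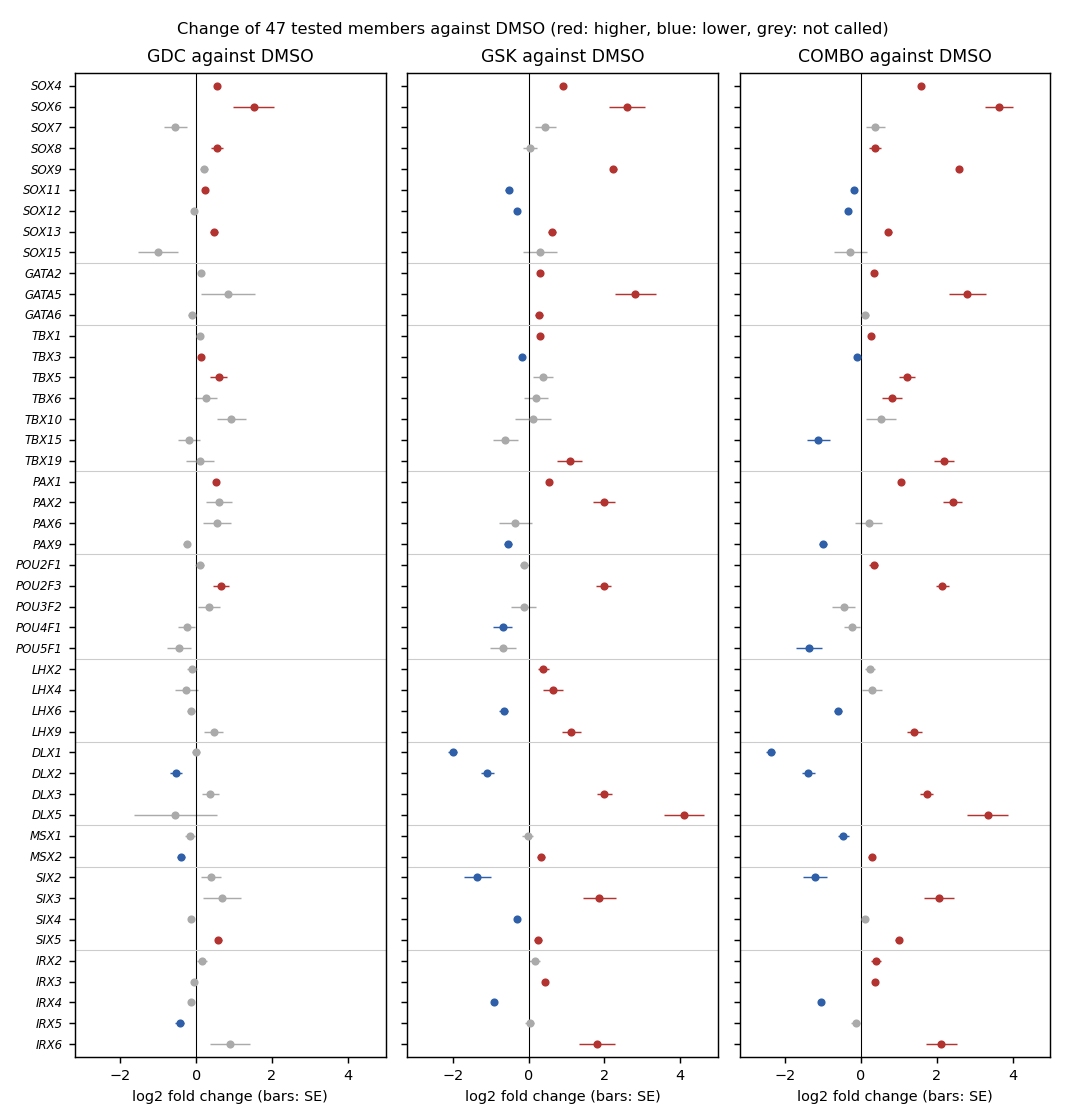
Log2 fold change against DMSO of 47 of the 48 tested members in GDC, GSK and COMBO (x axis, log2 scale; bars, SE of the fit over 12 libraries), with families separated by grey lines and members called higher in red, lower in blue and not called in grey. The points spread little in GDC, where 13 members were called, and from -2.01 to 4.10 with GSK and -2.39 to 3.64 with COMBO.

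The SOX family had 19 members, of which 9 were tested, 8 had counts without a test and 2 were silent. In GSK 4 were called higher and 2 lower (66.7% of those tested, beside 75.8% of all genes). In COMBO 5 were called higher and 2 lower (77.8%, beside 82.5%). SOX9, a regulator of cartilage, hair follicle and prostate bud formation at chr17:72121020-72126416, was at 9.36, 8.62 and 8.85 CPM in DMSO, at 10.4, 9.67 and 10.5 with GDC, at 40.3, 45.7 and 39.0 with GSK and at 47.8, 54.5 and 58.7 with COMBO. Both GSK126 arms lay far above every DMSO and GDC library, and COMBO lay above GSK in all libraries. The rise was 4.70-fold in GSK (log2 2.23, SE 0.092, adjusted p = 3.01e-14) and 6.03-fold in COMBO, while the GDC change of 1.15-fold did not pass (adjusted p = 0.163). COMBO exceeded GSK by 1.28-fold (adjusted p = 0.000612).

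SOX4, a SoxC factor of progenitor cells at chr6:21593751-21598619, rose in all 3 treated arms. Its levels were 156, 153 and 155 CPM in DMSO, 219, 231 and 234 with GDC, 300, 294 and 277 with GSK, and 428, 495 and 449 with COMBO. The 4 arms formed 4 separate, rising levels with no overlap. The folds against DMSO were 1.48 in GDC (adjusted p = 1.05e-07), 1.88 in GSK (4.11e-12) and 2.96 in COMBO (3.05e-16), and the interaction of the 2 agents on the log2 scale was 0.09 (SE 0.073, adjusted p = 0.393), or 0.21 and called without COMBO A.

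SOX6, a SoxD factor of muscle, cartilage and red cell development, was at 0.105, 0.0553 and 0.361 CPM in DMSO, or 17 counts in all. It stood at 0.707, 0.677 and 0.737 with GDC, at 1.54, 1.03 and 1.95 with GSK, and at 2.55, 4.21 and 2.18 with COMBO. No arm overlapped the one below it. The log2 change was 2.59 (SE 0.48, adjusted p = 6.30e-05) in GSK and 3.64 (SE 0.38, adjusted p = 2.47e-08) in COMBO. SOX6 was below the filter level in DMSO, so the filter favoured a rise. Its GDC call (log2 1.52, adjusted p = 0.0304) was lost without DMSO A, DMSO B, GDC A, GDC B or GDC C (adjusted p 0.0627 or higher), and its COMBO against GSK call (2.07-fold, adjusted p = 0.00947) without GSK B or COMBO B (0.0629 and 0.0722). SOX12, another SoxC factor, went the other way, from 150, 162 and 159 CPM in DMSO to 130, 126 and 122 with GSK and 117, 124 and 130 with COMBO. The 2 GSK126 arms overlapped each other and lay below every DMSO library. It was 1.25-fold lower in GSK (adjusted p = 8.84e-06) and 1.28-fold lower in COMBO (1.55e-06), and unlike SOX4 it did not pass in GDC (log2 -0.06, adjusted p = 0.368).

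Of the 6 GATA genes, 3 were tested. GATA2, a zinc-finger factor of blood and prostate, had, with TBX3, the highest DMSO level per length, at 425, 411 and 437 CPM. It stood at 445, 446 and 489 CPM in GDC, 557, 518 and 498 with GSK, and 527, 538 and 552 with COMBO. Both GSK126 arms lay above GDC and DMSO, although by small steps. The fold was 1.23 in GSK (adjusted p = 9.25e-06) and 1.27 in COMBO (1.27e-06), and the GDC change (log2 0.12, adjusted p = 0.0594) did not pass other than under library totals (0.0145) and with the compared arms alone (0.0417). GATA6, an endoderm factor, went from 9.41 ± 0.670 to 11.4 ± 0.889 CPM in GSK (SD, n = 3), called at an adjusted p of 0.0366 that was lost in 9 of 13 alternatives, among them leaving out any 1 of the 6 libraries (up to 0.204). GATA5, a heart and gut factor, had 8 pooled counts in DMSO and 9 with GDC against 29 with GSK and 45 with COMBO. The ratio of pooled levels to DMSO was 7.47 (95% exact counting interval 3.33 to 18.9) in GSK and 7.27 (3.39 to 17.9) in COMBO, and the interval for GDC included 1. GATA3, a luminal factor of breast, was nearly silent here, with 7 to 21 pooled counts per arm.

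TBX3, a T-box repressor of limb and mammary development, was among the most abundant members and moved little. Its levels were 521, 480 and 504 CPM in DMSO, 525, 561 and 559 with GDC, 449, 448 and 430 with GSK, and 459, 470 and 461 with COMBO. The GSK126 arms lay below every DMSO library, and GDC lay above every one. It was called higher in GDC (log2 0.13, adjusted p = 0.0166) and lower in GSK (-0.18, adjusted p = 0.000576) and COMBO (-0.11, adjusted p = 0.0153), none of which held throughout. The GDC call was lost in 9 of 13 alternatives, with DESeq2 (adjusted p = 0.0911) and without DMSO A, DMSO B, DMSO C, GDC B or GDC C (0.0505 to 0.299) among them, and under library totals the GSK change was -0.03 and the COMBO change turned to 0.09 (adjusted p = 0.0362).

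TBX19, which switches on the corticotroph programme in the pituitary, rose most in the family. It was at 0.631, 0.442 and 0.697 CPM in DMSO, 0.972, 0.616 and 0.469 with GDC, 1.32, 1.26 and 1.36 with GSK, and 3.42, 2.04 and 3.28 with COMBO. GDC overlapped DMSO, while GSK and then COMBO lay above both. The fold was 2.12 in GSK (adjusted p = 0.00762) and 4.57 in COMBO (2.42e-07), and COMBO exceeded GSK by 2.16-fold (adjusted p = 0.00216). TBX19 was below the filter level in DMSO, so the filter favoured a rise.

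TBX5, a heart and forelimb factor, was at 0.947, 1.05 and 0.866 CPM in DMSO, 1.33, 1.54 and 1.34 with GDC, 0.988, 1.42 and 1.19 with GSK, and 2.20, 2.17 and 2.11 with COMBO. COMBO alone stood clear of the other 3 arms. It was 2.31-fold higher than DMSO (adjusted p = 1.89e-05) and 1.77-fold higher than GSK (adjusted p = 0.00553), and the GSK change did not pass (adjusted p = 0.202). Its GDC call (adjusted p = 0.0493) was lost in 12 of 13 alternatives, among them leaving out any 1 of the 6 libraries compared (0.0716 to 0.304). TBX1, a pharyngeal arch factor, rose 1.23-fold in GSK (adjusted p = 0.000591) and 1.20-fold in COMBO (0.000842), and its exons overlap those of GNB1L on the other strand. TBX15, a skeletal factor, fell from 1.07 ± 0.409 to 0.503 ± 0.142 CPM in COMBO (SD, n = 3), 2.19-fold (adjusted p = 0.00255).

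Among the 9 PAX genes, PAX1, a factor of the sclerotome and thymus, had the highest level in DMSO. It was at 17.8, 18.0 and 17.9 CPM in DMSO, 23.9, 26.7 and 26.1 with GDC, 26.1, 28.0 and 23.5 with GSK, and 37.4, 37.3 and 36.9 with COMBO. The single agents overlapped each other, and COMBO lay above both. The log2 changes were 0.52 (SE 0.072, adjusted p = 1.34e-05) in GDC, 0.53 (SE 0.075, 2.27e-06) in GSK and 1.05 (SE 0.068, 1.20e-11) in COMBO, with an interaction of 0.00 (SE 0.10). PAX9, a close relative of PAX1 with roles in teeth and the thymus, fell where PAX1 rose. It was at 14.3, 14.2 and 14.4 CPM in DMSO, 11.7, 12.4 and 11.9 with GDC, 10.8, 8.85 and 9.91 with GSK, and 6.27, 6.96 and 8.30 with COMBO. The 4 arms fell in 4 steps without overlap. It was 1.46-fold lower in GSK (adjusted p = 9.26e-05) and 2.01-fold lower in COMBO (1.46e-08), the GDC change (log2 -0.25) had an adjusted p of 0.0509 and passed in 7 of 13 alternatives (lowest 0.0175, with no filter), those without DMSO A, DMSO B or GDC B included, and an exon overlap with SLC25A21 on the other strand leaves its count uncertain.

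PAX2, a kidney and urogenital factor, was at 0.316, 0.387 and 0.481 CPM in DMSO, 0.707, 0.739 and 0.536 with GDC, 1.87, 1.66 and 1.69 with GSK, and 1.97, 2.44 and 2.62 with COMBO. Every GSK126 library stood above every library without it. It rose 3.97-fold in GSK (adjusted p = 2.90e-06) and 5.36-fold in COMBO (1.64e-08), with the GDC change not called (adjusted p = 0.199). PAX2 was below the filter level in DMSO, so the filter favoured a rise. The thyroid and kidney factor PAX8 had 12, 4, 7 and 10 pooled counts in DMSO, GDC, GSK and COMBO.

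Of the 16 POU genes, 5 were tested. POU2F1, the widely expressed octamer factor OCT1, had the highest DMSO level, 97.2 ± 7.98 CPM (SD, n = 3). In COMBO it stood at 121 ± 6.97 CPM, 1.26-fold higher (adjusted p = 0.0116), a call lost with DESeq2 (0.146) and without DMSO C or COMBO C (0.0593 and 0.0696). The GSK change of POU2F1 (log2 -0.11, adjusted p = 0.390) did not pass, other than with no filter (-0.20, 0.00370) and without GSK C (-0.30, 0.0108). Exons of POU2F1 overlap those of CD247 on the other strand. POU2F3, the master factor of chemosensory tuft cells, was at 1.58, 2.21 and 1.64 CPM in DMSO, 1.77, 3.20 and 3.28 with GDC, 8.02, 7.11 and 6.35 with GSK, and 8.35, 7.58 and 8.08 with COMBO. GSK and COMBO overlapped each other and stood well above the rest. It rose 3.95-fold in GSK (adjusted p = 8.09e-09) and 4.44-fold in COMBO (4.19e-10), and its GDC call (1.58-fold, adjusted p = 0.0187) was lost without DMSO A, DMSO C, GDC B or GDC C (0.0528 to 0.171).

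POU4F1, a sensory neuron factor, was at 3.05, 2.65 and 2.98 CPM in DMSO, 1.65, 1.50 and 2.20 with GSK and 2.20, 2.08 and 3.28 with COMBO. GSK lay below DMSO, while COMBO overlapped it. It was 1.62-fold lower in GSK (adjusted p = 0.0149), a call lost under library totals (0.0533) and without DMSO C or GSK B (0.0504 and 0.0623), and the COMBO change had an adjusted p of 0.290. POU5F1, the pluripotency factor OCT4, fell from 2.42, 0.939 and 1.92 CPM in DMSO to 0.696, 0.665 and 0.582 in COMBO. DMSO B lay closer to COMBO than to the other DMSO libraries. It was 2.61-fold lower in COMBO (adjusted p = 0.000979), but 6 annotated pseudogenes, the near copy POU5F1B and an overlap with TCF19 make the source of its reads uncertain.

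Of the 8 LHX genes, 4 were tested. LHX6, a factor of cortical interneurons and the jaw, was at 7.26, 8.90 and 8.44 CPM in DMSO, 7.16, 7.76 and 7.71 with GDC, 4.94, 5.77 and 5.00 with GSK, and 5.28, 5.54 and 5.53 with COMBO. Both GSK126 arms lay below DMSO and GDC, and overlapped each other. It was 1.58-fold lower in GSK (adjusted p = 6.40e-05) and 1.53-fold lower in COMBO (4.21e-05). LHX9, a gonad and limb factor, rose from 0.842, 0.884 and 1.47 CPM in DMSO to 2.75, 2.45 and 2.71 with GSK and 3.37, 2.84 and 3.42 with COMBO. The GSK126 arms stood above every DMSO library. The fold was 2.19 in GSK (adjusted p = 0.000247) and 2.65 in COMBO (3.84e-06). LHX4, a pituitary factor, was called higher in GSK (log2 0.64, adjusted p = 0.0389), which was lost in 8 of 12 alternatives, with DESeq2 (0.239) and without DMSO A, DMSO C, GSK A or GSK B (0.0689 to 0.284) among them, and its exons overlap those of ACBD6 on the other strand.

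The DLX genes, homologues of fly Distal-less with roles in the forebrain, branchial arches and bone, were split between deep falls and large rises. DLX1, at chr2:172084740-172089677, was at 18.5, 18.3 and 20.2 CPM in DMSO, 18.7, 21.1 and 17.4 with GDC, 6.26, 4.42 and 3.90 with GSK, and 4.12, 3.55 and 3.28 with COMBO. GDC was level with DMSO, and both GSK126 arms lay far below. It was 4.03-fold lower in GSK (log2 -2.01, SE 0.13, adjusted p = 4.44e-11) and 5.23-fold lower in COMBO (5.91e-13), the deepest fall of any tested member in either arm. Its neighbour DLX2, at chr2:172099438-172102900, was at 5.05, 5.91 and 5.60 CPM in DMSO, 3.71, 3.02 and 4.83 with GDC, 2.75, 2.76 and 2.37 with GSK, and 2.15, 2.26 and 1.89 with COMBO. Every treated library lay below every DMSO library. It was 2.13-fold lower in GSK (adjusted p = 1.50e-05), 2.62-fold lower in COMBO (1.71e-07) and 1.45-fold lower in GDC (0.00937, lost at 0.0539 without GDC B).

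DLX3, a skin, hair and placenta factor, was at 1.47, 0.995 and 1.49 CPM in DMSO, 1.24, 1.91 and 1.94 with GDC, 5.38, 5.13 and 5.67 with GSK, and 4.18, 4.75 and 4.44 with COMBO. GSK lay above COMBO in all libraries, and both lay above DMSO and GDC. The fold was 3.99 in GSK (adjusted p = 7.24e-09) and 3.31 in COMBO (2.26e-08), and the difference between them did not pass (adjusted p = 0.173). DLX5, a bone and branchial arch factor, had 5 pooled counts in DMSO and 2 with GDC against 46 with GSK and 43 with COMBO. The ratio to DMSO was 19.0 (95% exact counting interval 7.56 to 61.1) in GSK and 11.1 (4.41 to 36.0) in COMBO, and the fit gave an adjusted p of 5.42e-07 and 9.79e-06. DLX5 passed the filter only through the GSK126 arms, so the filter favoured a rise.

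The 2 MSX genes, muscle segment homeobox repressors of tooth, limb and skull development, moved by less. MSX2 was at 11.8, 11.8 and 12.8 CPM in DMSO, 9.10, 8.80 and 9.85 with GDC, 13.2, 16.7 and 16.0 with GSK, and 13.8, 14.5 and 16.7 with COMBO. GDC lay below DMSO and both GSK126 arms above it. It was 1.32-fold lower in GDC (adjusted p = 0.00513), 1.26-fold higher in GSK (0.00648, lost at 0.101 without GSK B) and 1.22-fold higher in COMBO (0.0109, lost at 0.0665 with DESeq2 and at 0.113 without COMBO C). MSX1 changed in COMBO, where it was 1.39-fold lower (7.10 ± 1.51 to 5.36 ± 0.273 CPM, SD, n = 3, adjusted p = 0.00393), and under library totals this missed the threshold (0.0838).

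The sine oculis homologues, which act with EYA proteins, included members that moved in opposite directions. SIX2, whose promoter is printed above, was at 1.37, 1.33 and 1.27 CPM in DMSO, 1.86, 1.91 and 1.41 with GDC, 0.329, 0.474 and 0.678 with GSK, and 0.696, 0.665 and 0.218 with COMBO. It fell 2.56-fold in GSK (adjusted p = 0.00209) and 2.32-fold in COMBO (0.00115), with no overlap of DMSO and the GSK126 arms. SIX3, a forebrain and eye factor, moved the other way, from 0.210, 0.111 and 0.265 CPM in DMSO, or 15 counts, to 0.769, 0.711 and 0.932 with GSK and 1.22, 0.754 and 0.801 with COMBO. It rose 3.65-fold in GSK (adjusted p = 0.000748) and 4.16-fold in COMBO (6.07e-05). SIX3 was below the filter level in DMSO, so the filter favoured a rise.

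SIX5, expressed in muscle and eye, was at 7.89, 8.57 and 9.16 CPM in DMSO, 13.1, 13.0 and 12.9 with GDC, 11.0, 10.3 and 9.91 with GSK, and 17.6, 16.1 and 18.6 with COMBO. The arms stood in the order DMSO, GSK, GDC and COMBO, with no overlap. It was 1.49-fold higher in GDC (adjusted p = 7.05e-05) and 1.99-fold higher in COMBO (2.00e-09), and no other sine oculis homologue was called in GDC. The GSK call (1.19-fold, adjusted p = 0.0298) was lost in 8 of 13 alternatives, with DESeq2 (0.161) and without DMSO A, DMSO B, GSK A or GSK B (0.0991 to 0.191) among them.

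SIX4, at chr14:60709539-60724351, was the 1 member called in the main fit for a COMBO level that differed from what adding the single-agent log2 changes gives. It was at 48.5, 44.5 and 45.9 CPM in DMSO, 39.8, 44.3 and 41.8 with GDC, 38.0, 38.2 and 36.2 with GSK, and 47.8, 51.8 and 49.9 with COMBO. GSK lay below DMSO, GDC lay between them, and COMBO overlapped DMSO. SIX4 was 1.23-fold lower in GSK (adjusted p = 0.000171), the GDC change of -0.13 on the log2 scale did not pass (0.0781) but passed in 6 of 13 alternatives, with DESeq2 (0.0452) and without DMSO B or GDC B (0.0253 and 0.0146) among them. COMBO was 1.33-fold above GSK (1.37e-05) and 1.19-fold above GDC (0.000776). The COMBO change against DMSO (log2 0.11) did not pass, but was 0.32 under library totals (adjusted p = 2.19e-05) and 0.15 with genes of at least 1 CPM on average (0.0210). The interaction was 0.55 (SE 0.084, adjusted p = 9.05e-05). It was 1 of 48 tested members (2.08%) with an interaction call, where 21.4% of all genes had one, 4.86% higher and 16.5% lower, and 7 members had an unadjusted p under 0.05. Leaving out 1 library gave 3 members without COMBO A, 2 without DMSO B, GDC C, GSK B, GSK C or COMBO B, and 1 otherwise.

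Among the 6 IRX genes, Iroquois homeobox factors of patterning, IRX4, a cardiac ventricle factor that is also expressed in prostate, fell most. It was at 54.2, 61.5 and 60.5 CPM in DMSO, 54.2, 54.5 and 51.3 with GDC, 33.2, 31.7 and 29.6 with GSK, and 30.0, 26.1 and 29.7 with COMBO. The GSK126 arms overlapped each other and lay well below the rest. It was 1.88-fold lower in GSK (adjusted p = 2.93e-10) and 2.08-fold lower in COMBO (7.49e-12), with a GDC change of -0.15 on the log2 scale that did not pass (0.0669) but passed in 8 of 13 alternatives, with DESeq2 (0.0380) and without DMSO A, GDC A or GDC B (0.00663 to 0.0461) among them. IRX3 rose 1.35-fold in GSK (24.5, 28.2 and 26.8 CPM in DMSO, 35.4, 39.3 and 33.0 in GSK, adjusted p = 2.44e-05) and 1.29-fold in COMBO (6.53e-05). IRX5 was called in GDC, where it was 1.34-fold lower (8.23 ± 1.23 to 6.18 ± 0.486 CPM, SD, n = 3, adjusted p = 0.00986), and did not pass in GSK (0.806). IRX6 rose from 12 counts in DMSO, or 0.165 ± 0.0580 CPM, to 0.618 ± 0.0837 with GSK and 0.760 ± 0.221 with COMBO (SD, n = 3), with adjusted p of 0.00221 and 8.97e-05. Being below the filter level in DMSO, IRX6 was subject to a filter that favoured a rise. IRX2 was 1.31-fold higher in COMBO (adjusted p = 0.0114), a call lost with DESeq2 (0.0709) and without DMSO C (0.0569).

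**Figure D2:**
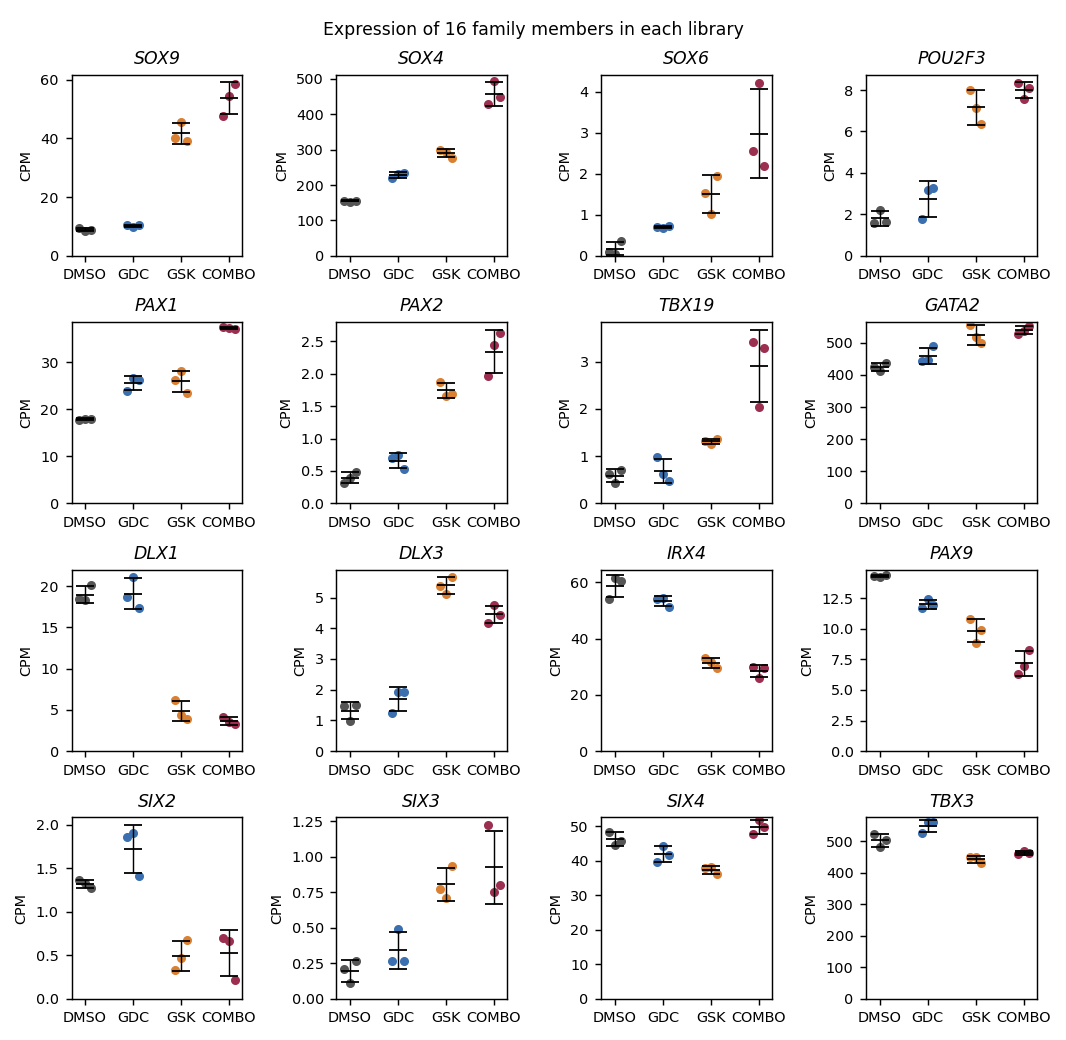
Expression in CPM (y axes, linear from 0) of 16 members in the 3 libraries of each arm (points), with the mean and SD of the arm (black bars). SOX9, POU2F3 and PAX2 are high in GSK and COMBO, SOX4 and PAX1 are highest in COMBO, and DLX1, IRX4 and SIX2 are low in GSK and COMBO.

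Silent and nearly silent members were compared by the counts of the 3 libraries of an arm together. A count of 0 in an arm allows up to 3 counts, which is 0.0434 CPM in DMSO, 0.0706 with GDC, 0.0894 with GSK and 0.0561 with COMBO, and these floors and the intervals below cover counting error only. SOX18, a vascular and lymphatic SOX factor, had 4 counts in DMSO, 2 with GDC, 20 with GSK and 8 with COMBO, a ratio to DMSO of 10.3 (95% exact counting interval 3.45 to 41.5) in GSK. In COMBO SOX18 was lower than in GSK, at a ratio of 0.251 (0.0956 to 0.595). GATA1, the erythroid factor, had 4, 1, 7 and 14 counts in DMSO, GDC, GSK and COMBO, and its COMBO ratio to DMSO was 4.52 (1.42 to 18.9).

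For TBX2, a repressor of cell cycle inhibitor genes, the interval of the ratio included 1 in GSK (2.47, 0.979 to 6.39) and in COMBO (1.94, 0.815 to 4.83), so no difference was detectable at this depth. Some members went down to 0. The octamer factor POU2F2 had 13 counts in DMSO and 0 with GDC, 2.66-fold lower with the 0 set to the floor of 3 counts. POU6F1 had 11 in DMSO and 0 in GSK, 1.78-fold lower in the same way. These 2 values leave out counting error in the DMSO counts, so they are not lower bounds. In COMBO POU2F2 had 7 and POU6F1 had 3, ratios to DMSO of 0.696 (0.235 to 1.88) and 0.353 (0.0632 to 1.33) whose intervals include 1. The neural crest factor SOX10 had 0 counts in DMSO and 4 in COMBO, 1.72-fold higher with DMSO set to the floor. That value leaves out counting error in the 4, so it does not establish a rise. The exons of SOX10 overlap those of POLR2F. The neural factor SOX2, known from lineage change in prostate cancer, had 1 count in DMSO, 0 with GDC, 6 with GSK and 4 with COMBO, a ratio to DMSO of 12.4 (1.50 to 569) in GSK and of 5.17 (0.512 to 255) in COMBO. The heart factor GATA4 had 1 count in every arm. The LIM homeodomain factors of head and kidney development LHX5 and LHX1 went from 1 and 2 counts in DMSO to 9 each in COMBO, ratios of 11.6 (1.61 to 510) and 5.82 (1.20 to 55.3), and IRX1 had 7 counts in each arm without GSK126 and 1 in each arm with it, with intervals that included 1.

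POU5F1B, a near copy of POU5F1, had the most counts of an untested member in DMSO, 36, against 7 in GSK, a ratio of 0.401 with an upper counting bound of 0.913, and 15 in COMBO, a ratio of 0.539 (0.274 to 1.01). SOX5, GATA3, PAX5, PAX7, PAX8 and POU3F1 had no more than 21 counts in any arm. Of these, SOX5 went from 2 counts in DMSO to 9 in COMBO, a ratio of 5.82 (1.20 to 55.3). A further 14 untested members, SOX1, SOX10, SOX14, SOX21, SOX30, GATA4, TBX4, TBX18, TBX20, TBX22, POU3F4, POU4F3, POU5F2 and LHX3, had fewer than 10 counts over the 12 libraries.

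**Figure D3:**
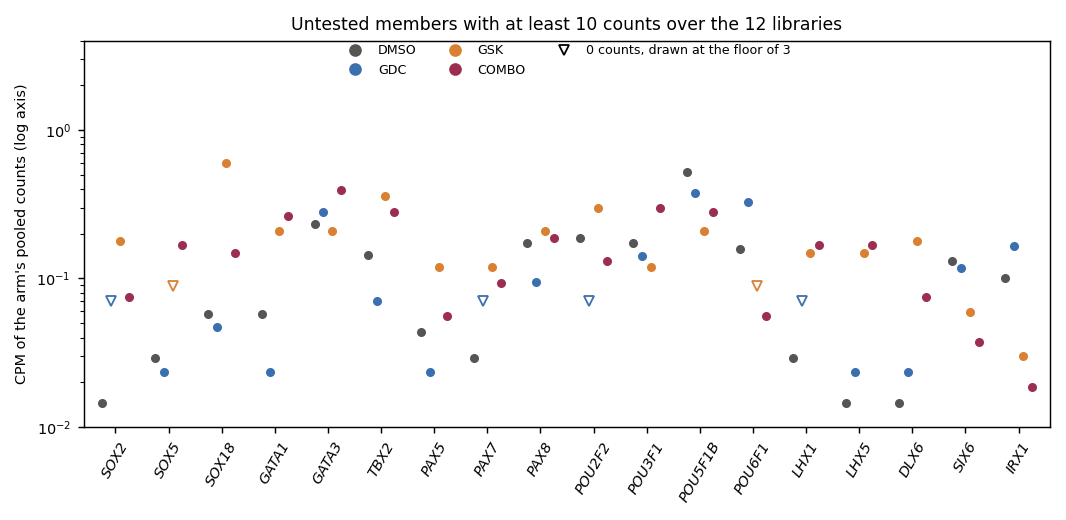
Pooled level in CPM (y axis, log scale) of 18 untested members with at least 10 counts over the 12 libraries, by arm. Points are pooled counts of 3 libraries scaled to CPM, and open triangles mark 0 counts drawn at the floor of 3; SOX18 in GSK is the highest point, from 20 counts.

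Of the 91 members, 17 lie in 8 groups of neighbours whose lowest coordinates on hg38 (GENCODE 44) are within 500 kb. Neighbours moved together in DLX1 and DLX2, 14.7 kb apart, both lower in GSK and COMBO. In the DLX6 and DLX5 pair, 14.8 kb apart, DLX6 had 1, 1, 6 and 4 counts in DMSO, GDC, GSK and COMBO beside the rise of DLX5, a GSK ratio of 12.4 (1.50 to 569), with exons that overlap DLX6-AS1. They moved apart in SIX3 and SIX2, 63.5 kb apart, where SIX3 rose and SIX2 fell in both GSK126 arms. SIX4 fell in GSK and overlapped DMSO in COMBO, and in its group the eye factor SIX6 had 9, 5, 2 and 2 counts. DLX3 rose beside DLX4, which had no count in any library, 21.4 kb away. TBX5 rose in COMBO 316 kb from TBX3, IRX6 rose in both GSK126 arms 393 kb from IRX5, and TBX2 and TBX4, 52.6 kb apart, were both nearly silent.

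**Figure D4:**
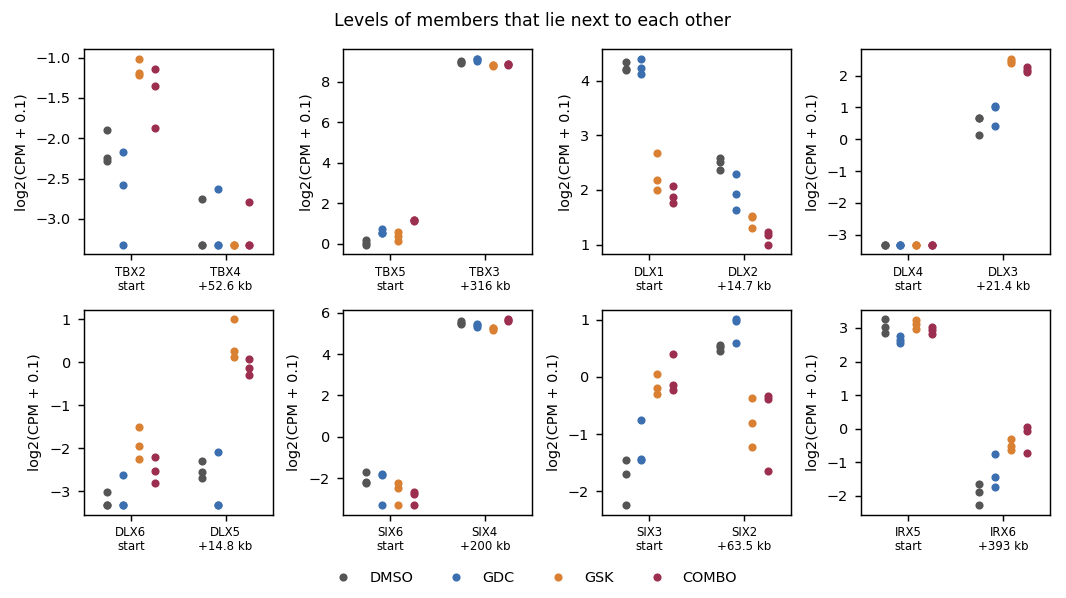
Levels as log2(CPM + 0.1) (y axes, a separate range in each panel) of 16 of the 17 members that lie in 8 groups of neighbours, 1 panel per group, with each library a point coloured by arm. Labels give the distance in kb from the first gene; SIX3 and SIX2 change in opposite directions, and DLX1 and DLX2 in the same direction.

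COMBO against GDC, which adds GSK126 to GDC-0941, called 36 members, 23 higher and 13 lower (29 and 10 under library totals), where 76.0% of all genes were called, 37.9% higher and 38.0% lower. COMBO against GSK, which adds GDC-0941 to GSK126, called 12 of 48 members (25.0%), 10 higher and 2 lower, where 45.9% of all genes were called, 19.0% higher and 26.9% lower. The members named above with the largest differences were TBX19, SOX6, TBX5, SIX5 and SOX4 on the higher side, and PAX9 (1.37-fold lower, adjusted p = 0.00306) and MSX1 on the lower. The MSX1 call (1.35-fold lower, adjusted p = 0.0244) was lost without GSK A, GSK C, COMBO A or COMBO B (0.0701 to 0.107). These comparisons share libraries with those against DMSO and are not independent of them.

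A further 10 tested members were SOX7, SOX8, SOX11, SOX13, SOX15, TBX6, TBX10, PAX6, POU3F2 and LHX2, with DMSO means of 0.504 to 13.7 CPM. Their log2 changes in GSK ran from -0.53 for SOX11, a SoxC factor, to 0.62 for SOX13, a SoxD factor.

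Partners that bind or cooperate with these families were read from a list of 37 genes, the PBX and MEIS cofactors, EYA and DACH proteins, LIM-domain adaptors, GATA cofactors, TLE corepressors, RUNX factors and others, of which 25 were tested. In GDC 8 (32.0%) were called, 7 higher and 1 lower, where 40.1% of all genes were, and 5 were called with DESeq2 or with no filter. In GSK 22 (88.0%) were called, 20 higher and 2 lower, beside 75.8% of all genes, and in COMBO 22, 19 higher and 3 lower, beside 82.5%. For the 20 partners at the filter level in DMSO, 17 were called in GSK (15 higher, 2 lower) and 17 in COMBO (14 higher, 3 lower), and their median log2 changes were 0.40 and 0.47 where those of all genes at that level were -0.02 and -0.05. Of all genes at that level, 76.1% were called in GSK and 82.6% in COMBO. TRPS1, a GATA-type repressor, went from 1.85 ± 0.908 CPM in DMSO to 2.45 ± 0.443 with GDC, 9.98 ± 0.870 with GSK and 15.7 ± 0.239 with COMBO (SD, n = 3), with a log2 change of 2.35 in GSK (adjusted p = 4.22e-10) and 2.99 with COMBO (8.55e-13). LMO2, a LIM-only adaptor of the GATA1 complex, rose from 0.598 ± 0.122 to 2.11 ± 0.839 with GSK and 2.39 ± 0.237 CPM in COMBO (SD, n = 3), with adjusted p of 6.55e-06 and 5.26e-07. MEIS3, a homeodomain cofactor, had 6 pooled counts in DMSO, 63 with GSK and 123 with COMBO, a ratio of 21.6 (95% exact counting interval 9.41 to 61.2) and 26.5 (11.8 to 73.6). FOXC1, a forkhead factor, had 16, 44 and 113, a ratio of 5.67 (3.14 to 10.8) and 9.13 (5.38 to 16.5). LMO2, MEIS3 and FOXC1 were below the filter level in DMSO, so the filter favoured a rise.

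Of the 39 HOX genes, 24 were tested. In GDC 3 (12.5%) were called, all lower, beside 40.1% of all genes, and under library totals 5 were called, 2 higher and 3 lower. In GSK 18 (75.0%) were called, 14 higher and 4 lower, beside 75.8% of all genes, and in COMBO 17 (70.8%), 14 higher and 3 lower, beside 82.5%. For the 21 HOX genes at the filter level in DMSO the median log2 change was 0.34 with GSK and 0.67 with COMBO, against 0.03 and 0.24 for the 35 members of the 10 families at that level. The difference between the lists was not tested.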

How the data were processed

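RNA-seq libraries of C4.2B cells were compared in 4 arms of 3 libraries. The submitters' processing notes name STAR, HTSeq, DESeq2 and hg38, with no versions. The count files deposited by the authors hold raw, unnormalized reads for each gene symbol. Their 5 summary lines entered neither library sizes nor tests. Whether counting used strand is not given in the sources used here, so members whose exons overlap another counted gene are uncertain. A deposited table of DESeq2-normalized values was not used here, and 0 columns mapped to no library. Groups were taken from the labels.

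Counts were scaled by TMM and tested in edgeR 4.0.16 (R 4.3.3) with glmQLFit and glmQLFTest after filterByExpr with a minimum count of 10 (14189 genes), all 12 libraries in 1 fit with 1 coefficient per arm. The common biological coefficient of variation was 0.0499. Adjusted p is Benjamini-Hochberg over all genes tested, two-sided, with a threshold of 0.05. The interaction is COMBO minus GDC minus GSK plus DMSO on the log2 scale. The edgeR step was tested on simulated data in which few genes changed, equally up and down, in a single arm at a time. That setting does not test the scaling where most genes are called, as in GSK and COMBO. Libraries within an arm differed beyond sampling noise (chi-square per degree of freedom 1.76 to 6.18), so each library counted once. CPM values in the text use TMM-scaled totals, and pooled ratios of low counts use the same totals with exact 95% conditional intervals. Lengths and positions are from GENCODE 44 on hg38.

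Members and lists were chosen with earlier results of these data known. Named members were, per family, the highest in DMSO and up to 3 called with the largest change in GSK and in COMBO, plus the largest calls (up to 5 a side) in GDC, COMBO against GSK and the interaction, members at 10 or fewer pooled DMSO counts with at least 10 in GSK or COMBO, and neighbours within 500 kb. Partner examples were the 4 largest calls in COMBO. A few members and markers are counted but not reported by name here. Other members are given by counts or ranges, and GATA3, GATA4, PAX8, SOX2, SOX5, SOX10, LHX1, LHX5, IRX1, POU2F2, POU5F1B and POU6F1 were picked out after their counts were seen. Alternatives were DESeq2 1.42.0, other scalings, filters and thresholds, the compared arms alone, a replicate block, and leaving out each library.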

Additional observations from a re-analysis of the deposited data

Results flagged for a closer look

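SIX4 was the 1 member called in the main fit for a COMBO level that differed from what adding the 2 single-agent log2 changes gives. The interaction on the log2 scale was 0.55 (edgeR quasi-likelihood test, adjusted p = 9.05e-05), with SIX4 lower in GSK and its COMBO libraries overlapping DMSO (log2 0.11, and 0.32 with an adjusted p of 2.19e-05 under library totals). The SIX4 call held in every alternative run. Among the other named members, an interaction call was gained for POU2F1 and MSX2 in 3 of 18 alternatives each. TBX19 and SOX4 gained one in 1 alternative each.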

How the results depend on the processing

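Over all arms the letters A, B and C did not pair libraries: same-letter deviations correlated at -0.084 to 0.188, above 0.1 in 2 of 18 pairs, and a library correlated best with its own letter in 11 of 36 cases. Those 2 pairs were between GDC and COMBO. There the same-letter values were 0.116 (A), 0.188 (B) and 0.073 (C), against -0.146 to 0.045 for different letters, so pairing of these 2 arms is not excluded. With a replicate block the members called were 12 in GDC, 33 in GSK, 36 in COMBO, 37 in COMBO against GDC, 12 in COMBO against GSK and 1 for the interaction. Requiring a change of at least 2-fold left 1, 14, 21, 13, 2 and 0 in the same order. With no filter the interaction called 3. Leaving out 1 library gave 7 to 13 in GDC (7 without GDC C), 31 to 35 in GSK, 33 to 37 in COMBO, 32 to 36 in COMBO against GDC, 11 to 13 in COMBO against GSK and 1 to 3 for the interaction, and the members detected were 29 to 33 in DMSO, 33 to 35 in GDC, 35 to 39 in GSK and 36 to 37 in COMBO. Under library totals TBX3 in COMBO turned from -0.11 to 0.09 (log2); this scaling lifted the median of all genes by 0.21. Of the named calls, 5 of 10 in GDC, 25 of 31 in GSK, 28 of 33 in COMBO, 25 of 31 in COMBO against GDC and 9 of 11 in COMBO against GSK held in every alternative; the cause of the losses was not tested. Depth limits the low members most: 3 counts are 0.0894 CPM in GSK, the shallowest arm, and 0.0434 in DMSO.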
